A study of Mus musculus with 2 samples.

Results

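Interleukin-1 (IL-1) family genes, the tumor necrosis factor gene and inflammasome genes were followed through the myeloid cells of a mouse lung tumor. The set holds Il1a, Il1b, Il1rn, Il1r2, Il18, Il18bp, Tnf, Nlrp3, Casp1 and Il6, chosen by symbol, and all 10 had a row among the 27998 gene rows and at least 1 unique molecular identifier (UMI, a tag that marks a single captured mRNA) in each library. Single-cell RNA-Seq had been run on CD45+ leukocytes from subcutaneous Lewis lung carcinoma (LLC) tumors, a carcinoma line grown in syngeneic C57/BL6 mice, 14 days after implantation. One library was made for each genotype, from 3 pooled mice. Control mice were mir-21flox/flox, and the conditional knockout mice were mir-21 flox/flox; lysmCre, in which Cre driven from the lysozyme M gene Lyz2 acts in macrophages and granulocytes. Both groups therefore carried the floxed alleles, and both were given as 10 weeks old, with implantation at 8 weeks. The comparison asks how loss of miR-21 in LysM-expressing cells relates to the levels of these genes in the infiltrate.

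The labels of the libraries disagree. The titles read wt and cko, whereas the descriptions of the cell source give the opposite genotypes, so each library is called here by its title, labelled wt or labelled cko. One protocol also names a narrower macrophage gate (CD45+, CD11b+, MHCII+, F4/80+) in place of CD45 alone, and lymphoid cells were present in both libraries. No row for the microRNA itself was analysed. Vmp1, the gene it lies in, had 230.9 and 223.5 CPM over all kept cells of the libraries labelled wt and cko (CPM is the UMI count of a gene scaled to the same total for every class and library). Lyz2, into which the Cre is inserted, had 17192 and 7911 CPM.

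Cells numbered 2449 labelled wt and 2718 labelled cko, at median depths of 8359 and 8247 UMIs. No cell had fewer than 3184 or 3187 UMIs, so cells with less RNA were absent from the deposited tables, and 5 cell barcodes occurred in both libraries. After quality filters 2397 and 2645 cells remained. Marker UMIs that included none of the 10 genes placed 38 and 78 cells in the granulocyte class, 1110 and 1072 in the monocyte class, 800 and 956 in the macrophage class and 67 and 93 in the dendritic class (labelled wt first, here and below). Another 183 and 207 lymphoid cells served as a reference for RNA released from other cells. The summed granulocyte markers reached 112313 and 160169 CPM in the granulocyte class and at most 1199 CPM in the monocyte, macrophage, dendritic or lymphoid classes, although most of these genes had also served in the gate. Since each genotype gave a single library, nothing below has a replicate or a p-value, and every 95% interval below covers counting error only.

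IL-1α and IL-1β are ligands of the same receptor and drive fever, neutrophil recruitment and local inflammation. Il1rn encodes the receptor antagonist, which occupies the receptor without signaling, and Il1r2 encodes a decoy receptor that binds IL-1 without passing a signal on. IL-18 induces interferon gamma in lymphocytes, and the secreted IL-18 binding protein, encoded by Il18bp, neutralizes it. IL-1β and IL-18 are made as inactive precursors, which caspase-1 cleaves once a sensor such as NLRP3 has assembled an inflammasome, so their mRNA is a measure of the precursor alone. TNF and IL-6 are inflammatory cytokines that macrophages release early after activation of the transcription factor NF-kappaB.

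The 10 genes are protein coding and lie at separate positions of the mouse genome (GRCm38), apart from the neighbors Il1a (chr2:129299610-129309972) and Il1b (chr2:129364570-129371139), both on the minus strand. Il1rn lies on the same chromosome (chr2:24336853-24351494, plus strand), Il1r2 at chr1:40074079-40125231, Il18 at chr9:50554827-50581840 and Casp1 at chr9:5298517-5307265, all on the plus strand. Nlrp3 (chr11:59541568-59566956) and Il6 (chr5:30013114-30019981) are on the plus strand, and Il18bp (chr7:102014885-102018690) and Tnf (chr17:35199381-35202007) on the minus strand. Promoter windows of 250 bases before each RefSeq start (build GRCm38.p6) were found for all 10 genes, 13 windows in all. Windows of 4 genes with different patterns of mRNA in these cells are shown, Il1b and Nlrp3, which were highest in granulocytes, Il18, which among the myeloid classes was lowest in dendritic cells, and Il6, which was hardly detected. Each is written 5′ to 3′ on the strand of the gene, and capitals mark a match to 1 of 5 searched motifs on either strand.
Il1b, chr2:129371140-129371389, minus strand: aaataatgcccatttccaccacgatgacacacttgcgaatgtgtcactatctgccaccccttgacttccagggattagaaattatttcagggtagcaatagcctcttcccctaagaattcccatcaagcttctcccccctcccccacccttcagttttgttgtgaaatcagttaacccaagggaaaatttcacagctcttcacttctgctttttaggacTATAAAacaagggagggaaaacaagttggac
Nlrp3, chr11:59541319-59541568, plus strand: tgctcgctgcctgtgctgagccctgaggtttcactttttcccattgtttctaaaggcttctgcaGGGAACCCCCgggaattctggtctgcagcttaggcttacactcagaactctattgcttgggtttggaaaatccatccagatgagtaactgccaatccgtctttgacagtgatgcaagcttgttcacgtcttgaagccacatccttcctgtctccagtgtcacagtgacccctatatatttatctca
Il18, chr9:50554450-50554699, plus strand: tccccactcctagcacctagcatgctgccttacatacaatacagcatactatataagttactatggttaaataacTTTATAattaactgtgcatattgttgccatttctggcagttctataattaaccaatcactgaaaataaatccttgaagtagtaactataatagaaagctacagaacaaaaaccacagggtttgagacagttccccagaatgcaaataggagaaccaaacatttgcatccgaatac
Il6, chr5:30012864-30013113, plus strand: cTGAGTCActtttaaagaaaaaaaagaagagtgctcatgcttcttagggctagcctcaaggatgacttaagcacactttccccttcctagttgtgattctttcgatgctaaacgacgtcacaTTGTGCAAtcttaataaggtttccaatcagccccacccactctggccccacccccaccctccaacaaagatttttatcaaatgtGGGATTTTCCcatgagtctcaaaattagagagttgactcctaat

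The capitals in Il1b are a TATA box at −31 to −26, counted from the start. Those in Nlrp3 are an NF-kappaB motif at −186 to −177, while the other RefSeq window of Nlrp3 (chr11:59542436-59542685, plus strand), not shown, held 3 PU.1 matches and no other, and those in Il18 are the letters of a TATA box on the opposite strand, at −175 to −170. Il6 held an AP-1 motif at −249 to −243, a C/EBP motif on the opposite strand at −128 to −121 and an NF-kappaB motif at −44 to −35. Such matches are common. Of 32851 windows of this length, 12.4% held TATAAA, 7.25% the NF-kappaB motif, 6.75% the AP-1 motif TGANTCA, 9.56% the C/EBP motif TTGCNNAA and 23.3% the PU.1 motif GAGGAA. The matches are a description of the letters and were not set against the mRNA levels.

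Il1b fell step by step from granulocytes to dendritic cells. It stood at 5778 CPM (95% interval 5471 to 6098) in granulocytes of the library labelled wt and at 4437 CPM (4245 to 4635) in those of the library labelled cko. Monocytes followed with 1198 and 991 CPM, macrophages with 807 and 680 CPM, and dendritic cells with 527 and 520 CPM. The order was the same in both libraries and no neighboring intervals overlapped within a library. Granulocytes exceeded monocytes 4.82-fold and 4.48-fold, monocytes exceeded macrophages 1.48-fold and 1.46-fold, and macrophages exceeded dendritic cells 1.53-fold and 1.31-fold. Lymphoid cells had 61.5 and 69.7 CPM, below every myeloid class. When each cell was thinned to 3000 UMIs, so that deep and shallow cells had the same chance of detection, an Il1b UMI was found in 100% and 89.7% of granulocytes, 73.9% and 71.8% of monocytes, 65.6% and 65.0% of macrophages, 59.7% and 57.0% of dendritic cells and 14.2% and 14.5% of lymphoid cells.

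**Figure D1:**
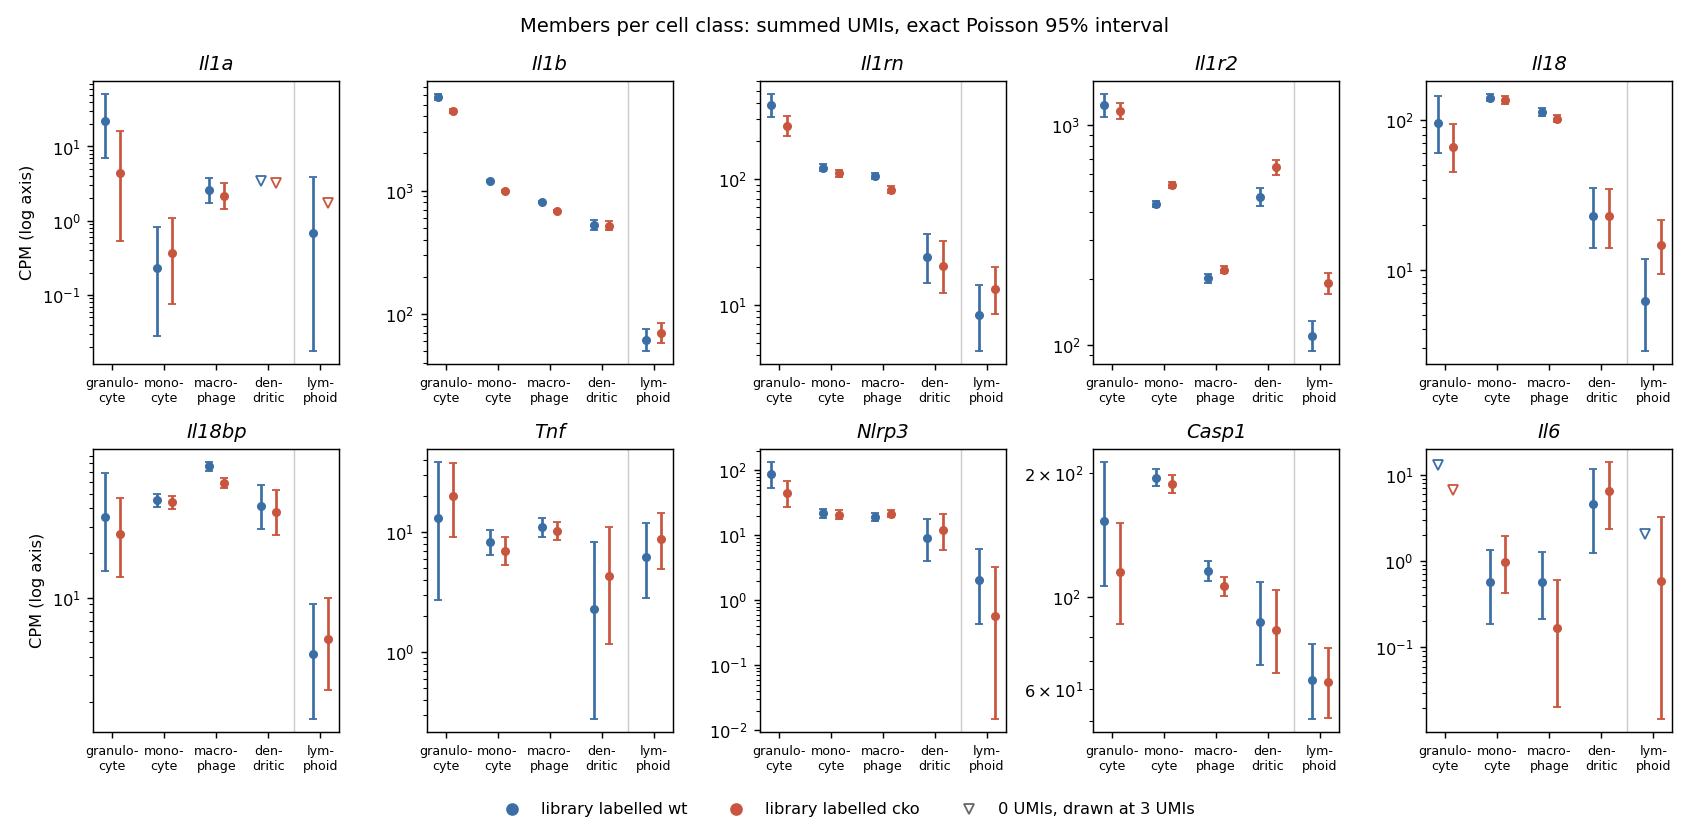
Level of each of the 10 genes in granulocytes, monocytes, macrophages, dendritic cells and lymphoid cells of both libraries, in CPM on a log axis, with exact Poisson 95% intervals for counting error and open triangles, at 3 UMIs, where none was counted. Il1b falls from 5778 and 4437 CPM in granulocytes to 527 and 520 CPM in dendritic cells, whereas Il18 is at 142 and 136 CPM in monocytes and 22.9 and 22.7 CPM in dendritic cells.

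The granulocytes were few, so that most Il1b molecules lay elsewhere. Of 22381 and 20394 Il1b UMIs in all kept cells, granulocytes held 5.90% and 9.83%, monocytes 46.3% and 39.6%, macrophages 37.4% and 39.7% and dendritic cells 2.06% and 2.36%. Within a class the molecules were unevenly spread. The 10% of cells with the most Il1b held 44.6% and 46.3% of the UMIs of monocytes and 49.0% and 44.5% of those of macrophages. All 38 granulocytes labelled wt kept an Il1b UMI after thinning, whereas 8 of the 78 labelled cko had none. These 8 cells were deeper than the other 70 (median 7079 against 4092 UMIs). Of the granule genes examined in them, Ltf (lactoferrin) was at 1708 CPM against 139.8 CPM and Ngp (neutrophilic granule protein) at 6851 CPM against 1263 CPM, although the Ltf came from 2 cells and the Ngp from 3. Camp, another one, came from 1 cell (1008 against 231 CPM), and Lcn2 was not higher (2255 against 2471 CPM). These granule genes were chosen after the values had been seen.

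Il1a, the other ligand, was close to the detection limit. Macrophages held 27 and 26 UMIs of Il1a, which is 2.60 CPM (1.71 to 3.78) and 2.18 CPM (1.43 to 3.20), spread over 15 and 10 cells. Granulocytes held 5 and 2 UMIs, monocytes 2 and 3, and dendritic cells 0 and 0. Macrophages thus carried 65.9% and 60.5% of the 41 and 43 Il1a UMIs, but the level was higher in granulocytes labelled wt, at 21.9 CPM (7.10 to 51.0) and 8.41-fold above macrophages (log2 interval 1.34 to 4.47). In the library labelled cko granulocytes stood at 4.43 CPM (0.536 to 16.0), and the order could not be told. The 0 in 67 and 93 dendritic cells allows, at a floor of 3 counts, a share of up to 4.48% and 3.23% of cells with a UMI after thinning.

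Il1rn, the receptor antagonist, was also highest in granulocytes, at 385 CPM (309 to 474) and 266 CPM (220 to 318). Monocytes had 123 and 111 CPM and macrophages 105 and 82.3 CPM, and dendritic cells had 24.0 and 20.5 CPM. Granulocytes exceeded monocytes 3.13-fold and 2.38-fold, and the 3 lower classes kept the same order in both libraries without overlap of neighboring intervals. Il1rn UMIs were found in 19 of 38 and 28 of 78 thinned granulocytes, in 19.2% to 24.1% of monocytes and macrophages, and in 2.19% and 2.90% of lymphoid cells.

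Il1r2, the decoy receptor, was carried by every class. It reached 1229 CPM (1090 to 1382) and 1157 CPM (1060 to 1261) in granulocytes, 470 and 641 CPM in dendritic cells, 435 and 532 CPM in monocytes and 200.3 and 219.5 CPM in macrophages. Dendritic cells and monocytes could not be ordered in the library labelled wt (1.08-fold, log2 interval −0.04 to 0.26), and dendritic cells were 1.20-fold higher in the library labelled cko. Lymphoid cells had 109.8 and 190.6 CPM. For each 100 Il1b UMIs, lymphoid cells held 179 and 273 UMIs of Il1r2, dendritic cells 89.2 and 123, and granulocytes, monocytes and macrophages between 21.3 and 53.7. As many as 40 Il1r2 UMIs were counted in a single lymphoid cell. Among lymphoid cells with a UMI of Foxp3, the transcription factor of regulatory T cells, 6 of 11 and 11 of 22 held Il1r2, against 38 of 172 (22.1%) and 60 of 185 (32.4%) of those without. The intervals overlapped in both libraries (23.4% to 83.3% against 16.1% to 29.0%, and 28.2% to 71.8% against 25.7% to 39.7%). These cells were not thinned, and the split by Foxp3 was chosen after the values had been seen. The summed level was 262 and 180 CPM in the Foxp3+ cells and 100 and 192 CPM in the others, so the order of the levels was not the same in the libraries.

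Il18 showed another pattern, with a gap between dendritic cells and the rest. Monocytes had 142 CPM (134 to 150) and 136 CPM (128 to 145), macrophages 114 and 102 CPM, granulocytes 96.2 and 66.4 CPM and dendritic cells 22.9 and 22.7 CPM. Macrophages and granulocytes could not be ordered in the library labelled wt (log2 interval −0.36 to 0.92), and in the library labelled cko macrophages were 1.54-fold higher. Lymphoid cells had 6.22 and 14.5 CPM.

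Il18bp, which encodes the soluble inhibitor of IL-18, was highest in macrophages, at 76.3 CPM (71.1 to 81.8) and 58.7 CPM (54.5 to 63.2). Monocytes had 45.1 and 43.6 CPM, dendritic cells 41.2 and 37.8 CPM and granulocytes 35.0 and 26.6 CPM, and these 3 classes could not be ordered in either library. Within the dendritic class the gene was uneven. Cells with at least 5 UMIs of Ccr7, Fscn1 and Ccl22 together, genes of mature, migrating dendritic cells, had 169 and 99.3 CPM from 20 and 21 UMIs. The other dendritic cells, which could hold fewer UMIs of these genes, had 21.2 and 19.6 CPM.

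The inflammasome sensor Nlrp3 was highest in granulocytes, with 87.5 CPM (53.4 to 135) and 44.3 CPM (27.0 to 68.4), each from 20 UMIs. Monocytes had 21.8 and 20.7 CPM and macrophages 19.0 and 21.5 CPM, and these could not be ordered. Dendritic cells had 9.15 and 11.9 CPM from 8 and 11 UMIs. No Nlrp3 UMI was left in 183 and 207 thinned lymphoid cells, which allows a share of up to 1.64% and 1.45%, against 5.88% to 6.69% in monocytes and macrophages.

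Casp1, the protease of the inflammasome, was found in every class. Monocytes had 195 CPM (186 to 204) and 188 CPM (179 to 198), granulocytes 153 and 115 CPM, macrophages 116 and 106 CPM and dendritic cells 86.9 and 83.2 CPM. Monocytes and granulocytes could not be ordered in the library labelled wt (1.27-fold, log2 interval −0.13 to 0.87), and granulocytes and macrophages in neither library. Lymphoid cells had 62.8 and 62.2 CPM and held Casp1 UMIs in 16.9% and 14.5% of thinned cells.

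Tnf and Il6 were hardly captured. Tnf stood at 8.22 and 6.99 CPM in monocytes and at 10.98 and 10.23 CPM in macrophages, and granulocytes and dendritic cells held 3 and 9 and 2 and 4 UMIs. A single macrophage labelled wt carried 39 of its 114 UMIs. After thinning, 2.07% and 1.87% of monocytes and 1.63% and 2.62% of macrophages held a Tnf UMI, against 1.64% and 3.86% of lymphoid cells, and the intervals of the lymphoid shares (0.339% to 4.72% and 1.68% to 7.47%) held the monocyte and macrophage shares of the same library. T and NK cells can make TNF themselves, which limits that reference. Il6 had 15 and 17 UMIs in all kept cells. Dendritic cells held 4 and 6 of them, and all of these lay in the Ccr7/Fscn1/Ccl22+ cells. Monocytes held 5 and 8 Il6 UMIs, macrophages 6, from 1 cell, and 2, and granulocytes none.

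**Figure D2:**
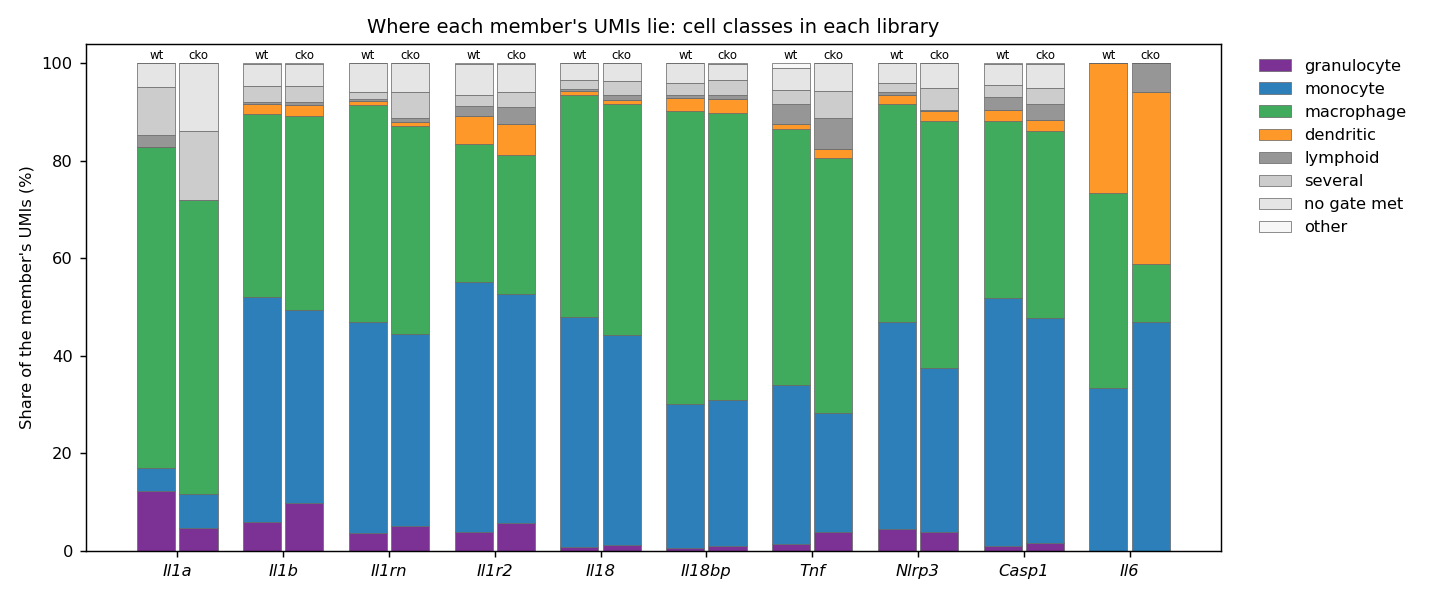
Share of all UMIs of each gene, in percent, that lay in each cell class of the libraries labelled wt and cko. Monocytes and macrophages hold most UMIs of Il1b, Il1rn, Il1r2, Il18, Il18bp, Nlrp3 and Casp1, for example 46.3% and 37.4% of Il1b labelled wt.

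Judged by a level at least 2-fold above each of the other 3 myeloid classes in both libraries, Il1b, Il1rn and Nlrp3 led in granulocytes. That was 3 of the 10 genes, where 2.02% of 10544 genes led in granulocytes. No member led in monocytes, macrophages or dendritic cells, where 0.0474%, 0.778% and 1.88% of genes did. Under 10 other ways of forming the classes or of averaging, Il1b led in 9, Il1rn in 9, Nlrp3 in 5 and Il1r2 in 3. The settings with no limit on Mgl2 in monocytes and without the Ccr7/Fscn1/Ccl22+ dendritic cells kept the same 38 and 78 granulocytes. Il1b, Il1rn and Nlrp3 led in both of those, which therefore add little to these counts. When only cells with at least 5000 UMIs were used, 19 and 28 granulocytes, Il1rn alone was left, and with granulocytes that had no UMI of the macrophage genes C1qa, C1qb and C1qc, 15 and 30 cells, Il1r2 took the place of Nlrp3.

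The classes were then divided by further markers. Il1b ran from 854 to 1403 CPM over the monocyte subclasses and from 618 to 974 CPM over the macrophage subclasses, and Ly6c2+ macrophages were above Ly6c2− macrophages in both libraries (972 against 749 CPM, and 974 against 618 CPM). Il1r2 differed between the subclasses of a class as well. Monocytes that were neither Ly6c2+, the classical type, nor Ace/Treml4+, the nonclassical type, had 612 and 716 CPM of Il1r2, and Ace/Treml4+ monocytes 253 and 282 CPM. Dendritic cells without the Ccr7, Fscn1 and Ccl22 signature had 521 and 794 CPM of Il1r2, and those with it 144 and 123 CPM. Il18 and Casp1 were highest in Ly6c2+ monocytes of both libraries, with 167 and 155 CPM and with 219 and 205 CPM.

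**Figure D3:**
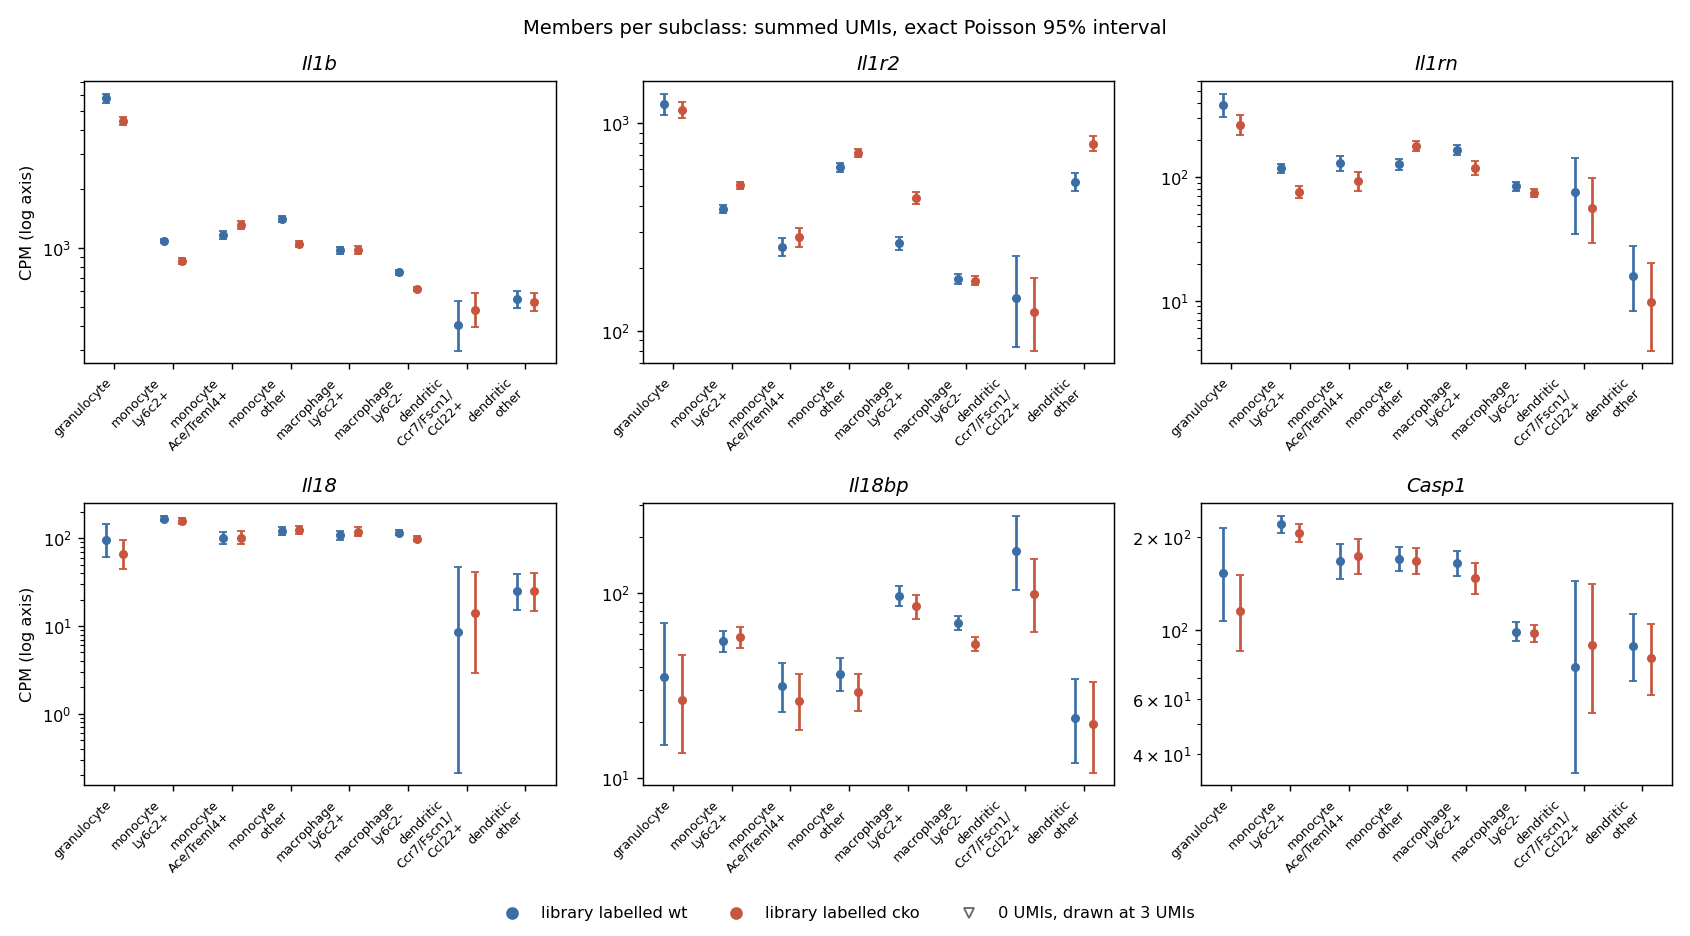
Level of Il1b, Il1r2, Il1rn, Il18, Il18bp and Casp1 (CPM, log axis) in granulocytes and in subclasses of monocytes, macrophages and dendritic cells, 1 point per library with exact Poisson 95% intervals. Il18bp is higher in Ccr7/Fscn1/Ccl22+ dendritic cells (169 and 99.3 CPM) than in the others (21.2 and 19.6 CPM), and Il1r2 shows the reverse.

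Monocytes and macrophages rich in Il1b were also richer in the decoy receptor. Among thinned monocytes, those richest in Il1b (at least 5 and 4 UMIs) held an Il1r2 UMI in 51.2% (45.3% to 57.2%) and 55.6% (49.7% to 61.3%), against 31.7% (26.4% to 37.4%) and 39.4% (33.9% to 45.2%) of monocytes with no Il1b UMI. In macrophages, with limits of 4 and 3 UMIs, the shares were 42.0% and 45.6% against 19.3% and 25.7%. For neither class did the intervals overlap. In granulocytes labelled cko, 21 of 21 with at least 26 Il1b UMIs held Il1r2, against 3 of 8 with none. Dendritic cells, with a limit of 2 UMIs, had 52.2% and 45.7% against 37.0% and 57.5%. Their intervals overlapped in both libraries, and the direction was not the same. The antagonist Il1rn followed in monocytes, with 30.9% and 24.2% against 17.6% and 13.2%, but not in macrophages, where it was 26.6% and 18.5% against 19.6% and 21.8%. Casp1 UMIs were found in 43.9% and 43.1% of the Il1b-rich monocytes and in 44.1% and 36.4% of those without Il1b. The cells of a library share its pool of mice and are not replicates.

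The comparison of the libraries was then made within each class, as the log2 ratio of CPM, labelled cko over labelled wt. Genes with 50 or more UMIs in both libraries together were compared, and a gene was counted when it passed 1.5-fold. In granulocytes 6.31% of 1617 genes were counted as higher and 7.79% as lower, in monocytes 1.85% and 1.33% of 8997, in macrophages 3.69% and 1.29% of 9721, and in dendritic cells 6.91% and 3.90% of 4055. No member passed 1.5-fold in any class, of 5 compared in granulocytes, 8 in monocytes, 9 in macrophages and 4 in dendritic cells. The granulocyte split depended on the scaling, with 102 genes higher and 126 lower by CPM and 188 higher and 64 lower after TMM scaling, which raised every granulocyte log2 ratio by 0.18. The median member stood at −0.41 in granulocytes, −0.06 in monocytes, −0.15 in macrophages and −0.04 in dendritic cells, beside −0.07, 0.02, 0.04 and 0.02 for all genes compared.

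**Figure D4:**
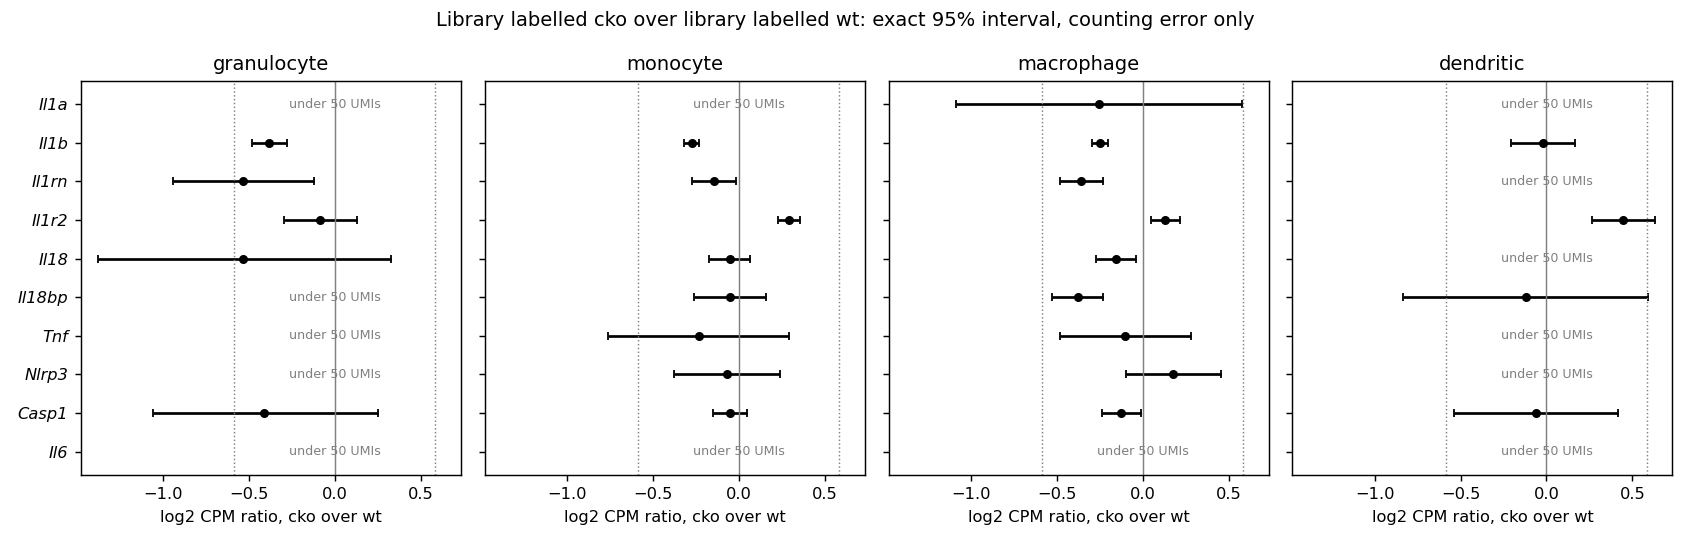
Log2 ratio of CPM, library labelled cko over library labelled wt, for each gene with at least 50 UMIs in a class, with exact 95% intervals for counting error and dotted lines at 1.5-fold. Il1b lies at −0.27 in monocytes and −0.25 in macrophages and Il1r2 at 0.29 and 0.13, and no point passes 1.5-fold.

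Below that fold, Il1b and Il1r2 had opposite signs in the monocyte and the macrophage class taken whole, though not in granulocytes. Within Ly6c2+ macrophages, Ly6c2− macrophages and Ace/Treml4+ monocytes their signs were not opposite. Il1r2 was at 0.15 (−0.06 to 0.36) in Ace/Treml4+ monocytes, 0.72 in Ly6c2+ macrophages and −0.03 (−0.13 to 0.07) in Ly6c2− macrophages. Il1b was lower in the library labelled cko in monocytes (log2 ratio −0.27, 95% interval −0.32 to −0.23) and in macrophages (−0.25, −0.29 to −0.20), and in dendritic cells its interval spanned 0 (−0.02, −0.21 to 0.17). Over the alternatives of gating, scaling and averaging that altered it, 9 in monocytes and 8 in macrophages, the ratio stayed between −0.30 and −0.23 and between −0.30 and −0.21. It was not the same in all subclasses. Il1b was lower in Ly6c2+ monocytes (−0.34) and in monocytes of neither type (−0.42), higher in Ace/Treml4+ monocytes (0.17, 0.08 to 0.27), lower in Ly6c2− macrophages (−0.28) and at 0.00 (−0.08 to 0.09) in Ly6c2+ macrophages. Markers of other cell types moved within the same classes. In monocytes the summed macrophage markers were at 1153 and 1843 CPM (log2 ratio 0.68, 4 of 7 genes higher) and the granulocyte markers at 1036 and 1199 CPM (0.21, 6 of 9 higher), and in macrophages the nonclassical monocyte markers were at 222 and 374 CPM (0.75, 5 of 5 higher) and the granulocyte markers at 352 and 434 CPM (0.30, 7 of 9 higher). Immediate-early and heat-shock genes, read as a measure of handling, were higher in both classes as well, with 11 of 12 higher and summed log2 ratios of 0.32 and 0.45. In macrophages some lists went the other way. The classical monocyte markers were at 2833 and 2541 CPM (−0.16, 2 of 5 higher). Dendritic markers were at 51.0 and 36.2 CPM (−0.49), with 6 of 10 genes higher and 2 at 0 in the library labelled wt. Apart from those 2, none of these genes was at 0 in either library. The part of these lists in the ratios of Il1b and Il1r2 was not tested.

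In granulocytes the sign of the Il1b ratio depended on which cells were counted. It was −0.38 (−0.48 to −0.28) in all granulocytes, −1.15 (−1.32 to −0.98) in those with at least 5000 UMIs, and 0.04 (−0.12 to 0.21) in those with no C1qa, C1qb or C1qc UMI. Macrophage markers summed to 814 CPM in granulocytes labelled wt and 2173 CPM in those labelled cko, with 5 of 7 genes higher in the latter and none at 0. Granulocyte markers were also higher there, 8 of 9 genes, with a summed log2 ratio of 0.51. The part of these markers in the Il1b ratio was not tested beyond the selections given. Il1rn in granulocytes went the same way, from −0.54 (−0.94 to −0.12) in all to 0.28 (−0.53 to 1.11) in those without C1q UMIs, and Il1r2 was at −0.09 (−0.30 to 0.13). Nlrp3 had 20 UMIs in the granulocytes of each library, too few for the comparison, and a ratio of −0.98 (−1.95 to −0.01).

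Il1r2 was higher in the library labelled cko in monocytes (0.29, 0.23 to 0.35), macrophages (0.13, 0.05 to 0.22) and dendritic cells (0.45, 0.26 to 0.63). The macrophage subclasses differed, with Ly6c2+ cells at 0.72 (0.58 to 0.87), or 264 against 435 CPM, and Ly6c2− macrophages at −0.03 (−0.13 to 0.07). Dendritic cells without the Ccr7, Fscn1 and Ccl22 signature were at 0.61 (0.42 to 0.80), past 1.5-fold. The ratio in dendritic cells fell to 0.17 as a mean over cells, each cell weighted equally. The dendritic class also held more of the classical monocyte markers (2238 and 2636 CPM, 0.24, 4 of 5 higher), the nonclassical monocyte markers (119 and 217 CPM, 0.87, 3 of 5 higher) and the macrophage markers (217 and 305 CPM, 0.49, 5 of 7 higher). In the lymphoid reference Il1r2 had a ratio of 0.80 (0.52 to 1.08), where macrophage markers were at 276 and 511 CPM (0.89, 4 of 7 higher) and granulocyte markers at 278 and 359 CPM (0.37, 5 of 9 higher, 1 at 0 in the library labelled wt). The part of these markers in both Il1r2 ratios was not tested. For each 100 Il1b UMIs the monocytes held 36.3 UMIs of Il1r2 in the library labelled wt and 53.7 in the library labelled cko.

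Among the remaining members, the macrophage values of 2 inhibitors stood out from 0. Il1rn was lower in the library labelled cko in macrophages (−0.36, −0.48 to −0.23) and Il18bp likewise (−0.38, −0.53 to −0.23), and over the 8 alternatives that altered them these stayed between −0.41 and −0.30 and between −0.43 and −0.36. Il1rn in monocytes was at −0.14 (−0.27 to −0.01), and its subclasses differed in sign, at −0.63 (−0.84 to −0.43) in Ly6c2+ cells, −0.47 in Ace/Treml4+ cells and 0.49 (0.29 to 0.69) in the rest. In the monocyte class 55.2% and 68.4% of the Il1rn UMIs lay in 10% of the cells, and 1 cell labelled cko held 56 of 908. Il18 (−0.15, −0.27 to −0.04) and Casp1 (−0.12, −0.24 to −0.01) were slightly lower in macrophages of the library labelled cko, and their intervals spanned 0 in monocytes. Ly6c2+ cells were 230 of 800 macrophages labelled wt and 181 of 956 labelled cko. Within the subclasses Casp1 was at −0.16 (−0.37 to 0.06) in Ly6c2+ and −0.02 (−0.16 to 0.12) in Ly6c2− macrophages, so both intervals spanned 0, and Il18 was at 0.13 (−0.12 to 0.38) in Ly6c2+ and −0.23 in Ly6c2− macrophages. Nlrp3 and Tnf had intervals that spanned 0 in both monocytes and macrophages. With Il1b, this made 5 of 9 members in macrophages with an interval below 0 and 1 above it, where 7.08% of all genes compared had an interval below 0 and 14.3% above. Such a count depends on the UMIs of each gene, since more UMIs give a narrower interval, and within Ly6c2+ macrophages the intervals of Il1b, Il18, Il18bp and Casp1 spanned 0.

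These ratios stood beside a difference that reached every class. A list of 12 immediate-early and heat-shock genes, which rise when tissue is dissociated and warmed, was higher in the library labelled cko in all 5 classes, by a log2 ratio of 0.27 in granulocytes, 0.32 in monocytes, 0.45 in macrophages, 0.47 in dendritic cells and 0.56 in lymphoid cells. Of its 12 genes 8, 11, 11, 9 and 11 were higher. Its part in the ratios of the members was not tested.

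The wider pathway was read from 87 genes for ligands, receptors, inflammasome parts, adaptors, NF-kappaB and response genes, of which 86 had a row. The median log2 ratio of those compared was −0.01 in granulocytes (30 genes), −0.02 in monocytes (73), 0.04 in macrophages (74) and 0.29 in dendritic cells (43). Past 1.5-fold were 2 genes higher and 5 lower in granulocytes, 1 and 3 in monocytes, 4 and 2 in macrophages, and 12 and 2 in dendritic cells. As shares of the genes compared these were 6.67% and 16.7%, 1.37% and 4.11%, 5.41% and 2.70%, and 27.9% and 4.65%, to be read against the percentages of all genes given above. After TMM scaling the granulocyte split turned to 5 higher and 3 lower, with a median of 0.17, while it was 1 and 3, 4 and 2, and 11 and 3 in the other classes. The genes were picked for their pathway with earlier results of these data known, and the list was not tested.

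Several of the counted genes encode chemokines. Ccl3, which encodes an attractant of monocytes and other leukocytes, was higher in the library labelled cko in monocytes (51.3 against 81.1 CPM, log2 ratio 0.66) and in macrophages (46.6 against 77.3 CPM, 0.73) and lower in granulocytes (564 against 268 CPM, −1.08). Cxcl3, a neutrophil attractant, was higher in granulocytes (201 against 440 CPM, 1.13) and in macrophages (0.98), where 21 of its 79 UMIs labelled cko came from 1 cell. Cxcl1, another one, moved apart in macrophages (1.68) and monocytes (−3.88). In macrophages 23 of its 81 UMIs labelled cko lay in 1 cell, and 29 of its 47 UMIs in monocytes labelled wt lay in 1 cell and only 3 UMIs were left in the library labelled cko.

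Other pathway genes in granulocytes were higher for Cd14, the endotoxin co-receptor (2209 against 3505 CPM, 0.67), and lower for Ccrl2, a chemerin-binding receptor (−1.27, with 60 of 115 UMIs in 1 cell labelled wt), and Txnip, a thioredoxin inhibitor that binds NLRP3 (−0.88). Sod2, the mitochondrial superoxide dismutase (−0.71), and Irg1, the itaconate-producing enzyme (−0.63), were past 1.5-fold by CPM but not after TMM scaling (−0.53 and −0.45). Irg1 was lower in macrophages (16.8 against 8.81 CPM, −0.93), as was Gpr84, a receptor for medium-chain fatty acids (−0.88), and Il10, the anti-inflammatory cytokine, was higher there (29 and 57 UMIs, 0.78). In monocytes Tnip3, an NF-kappaB inhibitor (−0.75), and Nlrc4, another inflammasome sensor (−0.63), were lower. These granulocyte values rest on the same few cells as the Il1b ratio.

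In dendritic cells 6.91% of all genes were higher and 3.90% lower. Of the pathway genes, higher were 2 of 3 ligand genes, 0 of 3 receptors, 0 of 7 inflammasome genes, 1 of 8 adaptors, 5 of 11 NF-kappaB genes and 4 of 11 response genes, and lower were 1 adaptor and 1 response gene. Relb, a subunit of the noncanonical NF-kappaB pathway, was at 1.01 (119 against 239 CPM). Il12b, a subunit of IL-12 and IL-23, was at 2.47 with 20 and 117 UMIs, all of them in Ccr7/Fscn1/Ccl22+ cells and 42 of the 117 in 1 cell. Ccrl2 (1.38), the cytokine-signaling inhibitor Socs3 (1.24) and the early-response gene Ier3 (1.13) were also higher, and the chemokine gene Ccl4 was lower (−1.55), with 51 of 61 UMIs in 1 cell. The dendritic class held 15 Ccr7/Fscn1/Ccl22+ cells of 67 in the library labelled wt and 28 of 93 in the other. Its summed dendritic markers were at 1515 and 2513 CPM, with 5 of 10 genes higher in the library labelled cko. Without those cells 6 pathway genes of 33 were higher and 2 lower, with a median of 0.13, and Relb was at 1.18, Socs3 at 1.25 and Ier3 at 1.47. Within those cells Relb was at 0.25 (693 against 823 CPM), Il12b at 1.71 (169 against 553 CPM) and Ier3 at −0.84, the last from 3 UMIs in each library.

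Between classes, 17 of 77 pathway genes led in granulocytes by the 2-fold rule, beside 2.02% of all genes. In dendritic cells 2 of the 77 led (Relb and Tnip3), close to the 1.88% of all genes. Those of granulocytes included Il1f9, the IL-36γ gene (328 and 252 CPM against at most 1.62 CPM in another myeloid class), Osm, the cytokine oncostatin M (451 and 642 CPM), Il1rap, the accessory chain of the IL-1 receptor (65.6 and 70.8 CPM), and Cxcl2 (6320 and 6490 CPM). Il1r1, the signaling IL-1 receptor, had 4 and 6 UMIs in the 4 myeloid classes together. The inflammasome adaptor Pycard had its highest level in macrophages (465 and 565 CPM), and Gsdmd, the pore-forming target of caspase-1, lay between 94.9 and 131 CPM in every myeloid class of both libraries.

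The genes whose levels ran most like those of the members were sought over 16 points, 8 subclasses in 2 libraries, among 8468 genes. The points share libraries and differ in depth, and the correlations are a description. Nearest to Il1b were Trem1, an amplifying receptor of granulocytes and monocytes (Pearson r = 0.974), Irg1 (0.968) and Grina (0.963). Il1r2 was nearest to Il18rap (0.950), the accessory chain of the IL-18 receptor, then Ifitm1 (0.925) and Cfap43 (0.918). Il1rn was nearest to Tnfaip2 (0.929), Gng5 (0.907) and Hif1a (0.898). Il18 ran with Adam15 (0.986), Ms4a6b (0.978) and Tfec (0.974), and Casp1 with Prtn3 (0.942), Vcan (0.940) and Cib1 (0.930). Nlrp3 was nearest to Hcst (0.940), Cd300lf (0.937) and Zcchc2 (0.930). Il18bp had weaker neighbors in Selm (0.902), Znfx1 (0.896) and Scpep1 (0.895), and those of the sparse Tnf included Lppos (0.896) and Pgm1 (0.889). Il1a and Il6 had too few UMIs.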

How the data were processed

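The 2 libraries (10x 3′, v2), 1 per genotype, were read from the UMI counts that the authors deposited, not normalized and limited to the cells called by them. Their processing notes name Cell Ranger, Seurat and mm10, and versions were not given in the sources used here. A cell needed 200 detected genes and no more than 10% mitochondrial UMIs. The automatic Scrublet call marked 0.136% of cells and had not worked, so the highest scores were removed at 0.8% per 1000 cells (48 and 59 cells). Cells were gated by summed marker UMIs (granulocyte at least 5 plus 20 of S100a8 and S100a9, dendritic 2, C1q genes 10 for macrophages and under 5 for monocytes, monocyte 10 classical or 3 nonclassical with Mgl2 under 3), and the 58 and 91 cells in several gates were left out. Members and lists were chosen with earlier results of these data known. The gate limits, the markers used in them (Mmp9, Itgae and Mgl2 were left out of the granulocyte and dendritic gates) and the minimum of 3 UMIs in a leading class were set after counts had been seen.

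UMIs were summed per class and scaled to CPM with exact Poisson intervals, without scaling for gene length, since 3′ ends were counted. Ratios have exact conditional binomial intervals and shares Clopper-Pearson ones, all at 95% and for counting error only. UMIs mark molecules, not reads. Named were all members and, per class, up to 5 pathway genes in each direction with the largest fold among those past 1.5-fold whose interval excludes a ratio of 1. Likeness used log2(CPM + 10) for genes with at least 200 UMIs, a minimum for the compared genes that was added after the data were seen, and 1 of the 3 genes nearest to Tnf is not reported here. Intervals were tested on simulated data. Tools were Python 3.11.15, scanpy 1.11.5, numpy 2.4.6, scipy 1.17.1, pandas 2.3.3, matplotlib 3.10.9, R 4.3.3 and edgeR 4.0.16 (TMM factors only). The pathway gene listed as Acod1 was matched by identifier to Irg1.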

Additional observations from a re-analysis of the deposited data

How the results depend on the processing

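No paired analysis was possible because each group is 1 library. Some of the settings were chosen after seeing the data (a granulocyte minimum of 10, granulocytes with no C1q UMI, no limit on Mgl2, and dendritic cells without Ccr7/Fscn1/Ccl22+ cells). Of 312 alternative log2 ratios of members, 230 had another value than the main one, and 213 of those stayed within its interval. The sign changed in 17, mostly where the main interval spanned 0. Where it did not span 0, the sign changed for Il1b (0.045) and Il1rn (0.28) in granulocytes with no C1q UMI. Il1b in granulocytes (main value −0.38) was −0.23 with the C1q minimum halved, −0.24 with cells of several gates kept, −1.15 with at least 5000 UMIs, −0.51 with a granulocyte minimum of 10, −0.20 after TMM scaling and −0.27 as a mean over cells. Il1b in macrophages was −0.30 after TMM scaling. Il1r2 was 0.39 in monocytes with the C1q minimum halved, 0.14 in granulocytes and 0.25 in dendritic cells with cells of several gates kept, −0.70 in granulocytes with at least 5000 UMIs and 0.17 in dendritic cells as a mean over cells. Members past 1.5-fold in granulocytes numbered 2 with the C1q minimum halved or at least 5000 UMIs, and 1 with no doublets removed, a minimum of 10, no C1q UMI or the mean over cells, against 0, and in dendritic cells 1 without the Ccr7/Fscn1/Ccl22+ cells. Genes past 1.5-fold rose from 228, 286, 484 and 438 to 1687, 1116, 1302 and 2105 (granulocyte, monocyte, macrophage, dendritic) with a minimum of 10 UMIs, where more sparse genes were compared. The other 40 of 44 alternative counts of genes stayed within 1.5-fold of the main count, and the mean over cells was not among them. Shares of all genes are not given for those settings, so the counts of members there have no share beside them. Genes leading in monocytes (5) numbered 16 with several gates kept, 1 with at least 5000 UMIs, 10 with a granulocyte minimum of 10 and 11 as a mean over cells. Those leading in macrophages (82) numbered 40 with several gates kept and 51 with no C1q UMI, those in dendritic cells (198) 93 with no C1q UMI, and those in granulocytes (213) 85 with at least 5000 UMIs, where 1 member led. Pathway genes past 1.5-fold in granulocytes numbered 2 higher and 5 lower by CPM, and 5 and 3 after TMM scaling. Causes were not tested. Shares of cells with Il1b fell at 1000 UMIs to 84.2% and 76.9% (granulocytes), 50.3% and 43.4% (monocytes), 40.9% and 39.1% (macrophages) and 32.8% and 30.1% (dendritic cells). Without thinning they were 96.2% in granulocytes labelled cko, 87.4% and 85.2%, 89.0% and 86.2%, and 86.6% and 84.9%, as depth sets detection. Il1a, Il6 and Tnf are limited by depth, with at most 233 UMIs in a library.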
